A study of Mus musculus with 12 samples.

Results

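Activated CD8 T cells in which Tmed10 was inactivated by a guide RNA were compared directly with activated CD8 T cells that kept Tmed10 and received the small molecule AGN192403. The comparison asks what a genetic and a chemical perturbation of the same protein family do differently to the transcriptome. The members are 4 of the 12 libraries of the series, chosen by their sample labels: 2 libraries of Tmed10 guide cells and 2 libraries of control guide cells given AGN192403, all activated. All cells came from spleens of OT-I/Cas9 mice, which carry 1 transgenic T cell receptor for an ovalbumin peptide and express the Cas9 nuclease. KO cells carried a retroviral guide against Tmed10 and were cultured with water. AGN192403 cells carried a control guide (Ctrl-2) and were cultured with AGN192403 at 100 µM for 24 h. Control cells, used as background, carried the control guide and water. Activated cells of all 3 groups were kept for 24 h on antibody to CD3 at 2.5 µg/mL, and the same 3 groups without antibody are called resting. Before that, all cells had been primed on antibodies to CD3 and CD28, transduced, selected for the guide vector and kept in interleukins for days, so resting cells are previously stimulated cells and not naive ones. KO cells are a pool of edited and unedited cells and not a clone. KO and AGN192403 cells differ in the guide, the compound and the time since the perturbation began, and these cannot be told apart. The labels do not say whether the 2 replicates of a group are separate cultures or mice, so p-values may measure only technical spread.

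TMED10 is a p24 family protein that shuttles between the endoplasmic reticulum (ER) and the Golgi, binds cargo through its lumenal domain, and binds the coats of transport vesicles through its short cytosolic tail. The family members act as heteromers, and loss of 1 member often lowers the protein level of its partners. AGN192403 is an imidazoline receptor ligand, also known as BRD4780, that binds TMED proteins and releases proteins held in the early secretory pathway. A CD8 T cell restimulated through its receptor secretes cytokines and granules, divides, and raises protein synthesis, so it makes heavy demands on this pathway.

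The targeted gene was lower in both KO libraries. Tmed10 (chromosome 12, 85340614 to 85374847, minus strand, GRCm38) had 55.9 and 58.3 CPM in KO cells, against 135 and 144 CPM in AGN192403 cells. Its log2 difference, KO minus AGN192403, was -1.30 ± 0.052 (SE, adjusted p = 1.40e-14), and control cells had 128 and 125 CPM, close to AGN192403 cells. CPM here means read counts scaled to a common library size, and SE is the standard error of the fit. An edited allele can still be transcribed, so the remaining reads do not measure the remaining protein.

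Library totals over the series ran from 9089350 to 16481840 counts, and the 2 KO libraries were the deepest and the shallowest of the 6 activated ones. All 10 CD8 T cell markers passed the expression filter, and their summed level was 3180 and 3233 CPM in KO cells, against 2922 and 3162 CPM in AGN192403 cells. Summed markers of CD4 T cells were 70.2 and 73.5 CPM in KO cells against 95.8 and 89.9 CPM in AGN192403 cells, most of it Zbtb7b, and Cd4 itself was at or below 1.29 CPM. Marker sums of B cells, NK cells, myeloid, mast, erythroid and stromal cells were at most 202 CPM in these 4 libraries, with Cd74 the largest contributor. The 2 AGN192403 libraries differed more from each other than the 2 KO libraries did, with a chi-square per degree of freedom of 3.86 between AGN192403 replicates and 1.70 between KO replicates. Malat1, a nuclear long RNA, shows the gap: it had 437 and 400.3 CPM in KO cells, against 1833 and 752 CPM in AGN192403 cells. Its log2 difference was -1.62 with all libraries and -0.86 without AGN192403 replicate 1.

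In all, 2673 of 13167 genes tested differed between KO and AGN192403 cells at an adjusted p of 0.05, which is 20.3% of them, in edgeR's quasi-likelihood test. Of these, 1706 genes (13% of those tested) were higher and 967 (7.34%) were lower in KO cells. Most differences were small: 69 called genes (0.524%) were higher by 2-fold or more, and 50 (0.38%) were lower by as much. The 2 groups did not overlap for 7352 genes (55.8%), with KO the higher for 32.2% of all tested genes and the lower for 23.6%. Higher calls made up 63.8% of all calls, but 44.5% with library totals in place of TMM scaling, which gave 1204 higher and 1500 lower genes. The median of all genes tested was 0.024 log2 under TMM and -0.023 under library totals. Without AGN192403 replicate 1, 1774 genes were called, and without KO replicate 1 or 2, 1583 or 1754. No gene called in both the full fit and an alternative changed sign, but these fits share libraries, so that was likely in advance. Below, gene lists are described by the number of members called. In the 22 cases where a list had 0 called members in a direction, at most 3 members reached an unadjusted p under 0.05 in that direction. DESeq2, which called fewer genes in all, called 0 of them, but other alternatives called some. Library totals called 2 cytotoxic effectors and 2 cytokine receptor and feedback genes lower. With the replicate number as a block, 2 ER cargo receptors were called higher.

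**Figure D1:**
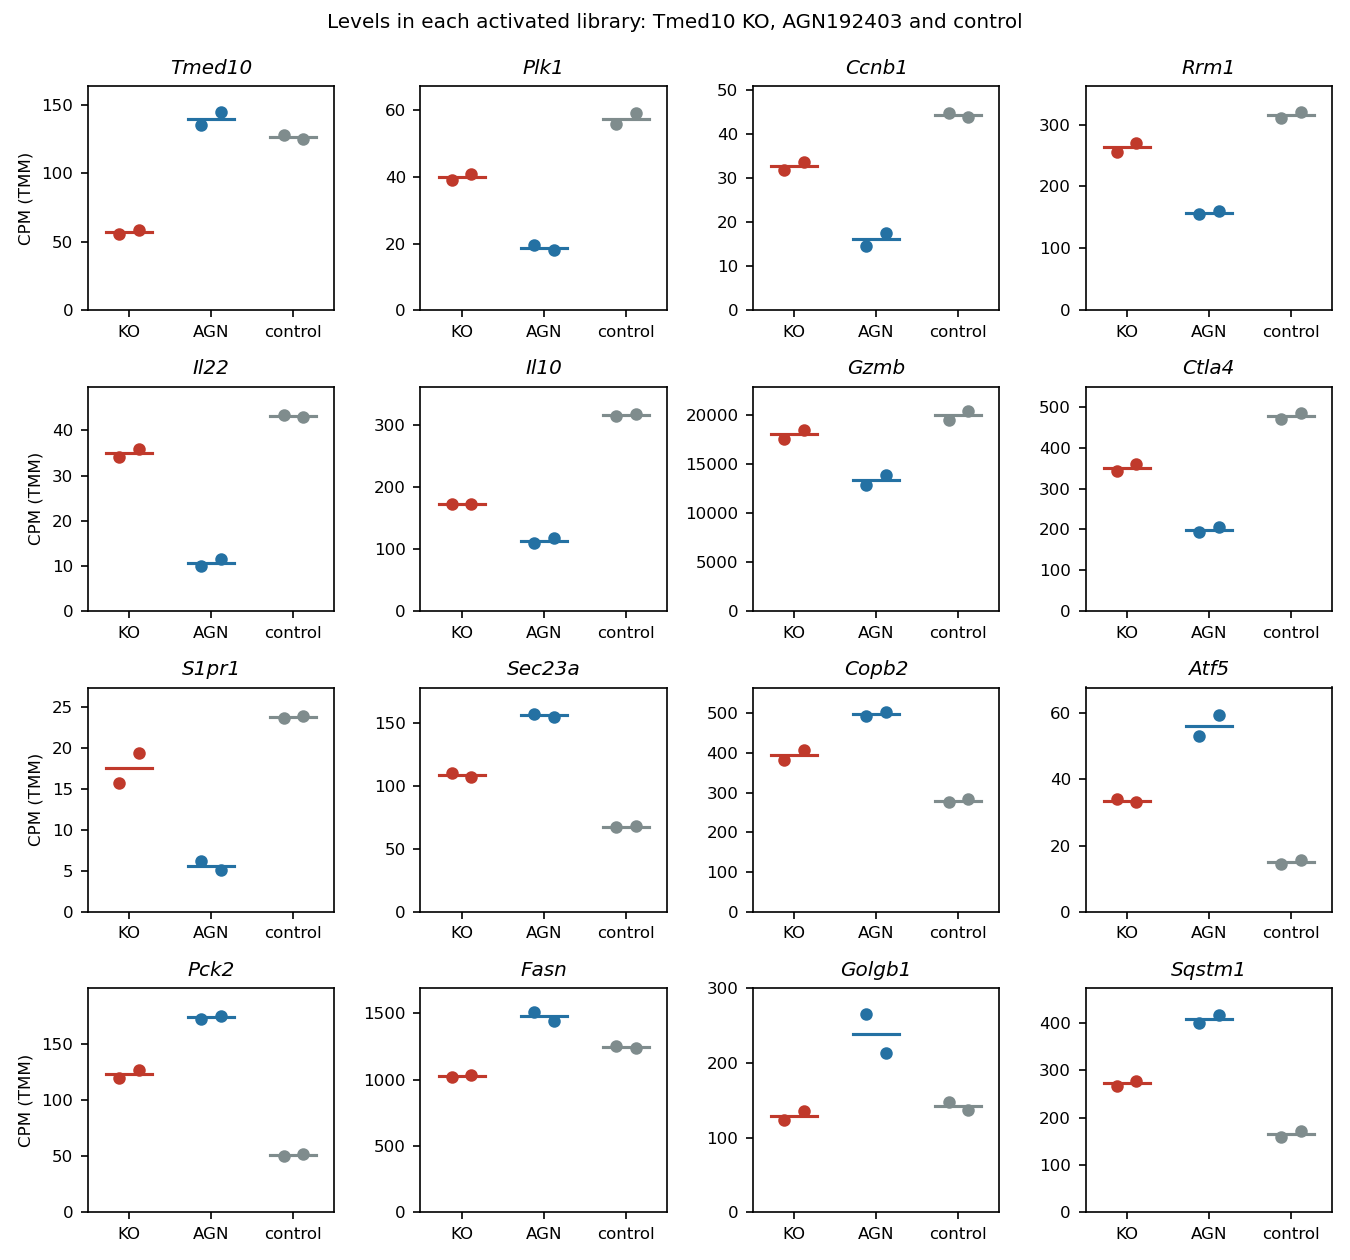
Levels of 16 genes in each activated library, in CPM with TMM scaling on linear axes that start at 0; points are single libraries, horizontal bars are means of 2, and columns run KO, AGN192403, control. For cell cycle genes such as Plk1 the KO libraries lie between the others, at 39.2 and 40.9 CPM, against 19.6 and 17.9 CPM with AGN192403 and 55.8 and 59.2 CPM in controls.

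Genes of G2 and mitosis were higher in KO cells almost throughout the list. Of 56 tested members, 51 were higher in KO than in AGN192403 cells and 0 were lower, with a list median of 0.77 log2 beside 0.024 over all genes. Plk1, the kinase that drives entry into and passage through mitosis, had 39.2 and 40.9 CPM in KO cells, against 19.6 and 17.9 CPM in AGN192403 cells. Its log2 difference was 1.09 ± 0.081 (SE, adjusted p = 4.75e-10). Both KO libraries were above both AGN192403 libraries and below both control libraries, which had 55.8 and 59.2 CPM. Aurka, the kinase that activates Plk1 and matures the spindle poles, had 35.7 and 36.9 CPM in KO cells, against 15.6 and 17.9 CPM in AGN192403 cells. Nusap1, which bundles spindle microtubules, had 48.5 and 49.3 CPM in KO cells, against 22.4 and 22.6 CPM in AGN192403 cells. Cyclins B1 and B2, the partners of the mitotic kinase CDK1, showed the same order. Ccnb1 had 31.7 and 33.7 CPM in KO cells, 14.6 and 17.5 CPM in AGN192403 cells and 44.7 and 43.9 CPM in control cells, and Ccnb2 had 24.9 and 20.7 CPM in KO cells, 11.7 and 11.5 CPM in AGN192403 cells and 29.2 and 31.1 CPM in control cells. Nek2, a kinase of centrosome separation, differed by 1.08 ± 0.093 log2 (SE, adjusted p = 5.09e-09), and all 6 of these genes were called under every alternative tried. With 1 library left out the count of higher members was 48 to 52. In bulk RNA, fewer cells in mitosis and less RNA per cell cannot be told apart.

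S phase genes moved the same way by smaller amounts. Of 47 tested members, 45 were higher in KO cells and 0 lower, with a median of 0.46 log2. Rrm1, the large subunit of ribonucleotide reductase, had 256 and 271 CPM in KO cells, against 155 and 160.0 CPM in AGN192403 cells. Lig1, the ligase that joins Okazaki fragments, had 89.5 and 85.6 CPM in KO cells, against 52.9 and 53.2 CPM in AGN192403 cells, a difference of 0.73 ± 0.056 log2 (SE, adjusted p = 9.01e-10). Mcm7, a subunit of the replicative helicase, and Cdc45, its activator, differed by 0.61 and 0.59 log2. In each of these genes both KO libraries were above both AGN192403 libraries, but list members with overlapping groups were not eligible to be named. Cyclins and inhibitors of G1 were mixed, with 7 higher and 2 lower of 17. Of 26 p53 targets 1 was higher and 4 were lower, with 8 lower under library totals. That is 19.2% of p53 targets called, beside 20.3% of all genes.

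Promoters of the G2 and M phase members are shown because a shared short element is known there: the cell cycle genes homology region, TTTGAA, through which the DREAM and MuvB complexes act. The letters TTTGAA, searched on both strands in the 300 bases from 250 before to 50 after each RefSeq start (GRCm38.p6), stood in 34 of 48 G2 and M phase promoters (70.8%), against 14.3% of the 9502 tested genes with a promoter window. A match is a description of the letters and not a proven site. In the stretches below the capitals mark the match, which lies 167, 29 and 103 bases before the start of Ccnb2, Ube2c and Kif2c; Ube2c, which loads ubiquitin for the anaphase-promoting complex, and Kif2c, a microtubule depolymerase, were picked after their values were seen. They are chr9:70421682-70421751 (minus strand), chr2:164769867-164769936 (plus) and chr4:117178836-117178905 (minus).
Ccnb2: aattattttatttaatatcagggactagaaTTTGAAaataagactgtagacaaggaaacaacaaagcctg
Ube2c: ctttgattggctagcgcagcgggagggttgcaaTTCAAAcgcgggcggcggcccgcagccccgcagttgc
Kif2c: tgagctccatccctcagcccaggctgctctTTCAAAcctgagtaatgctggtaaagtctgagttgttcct
Ube2c had 45.6 and 43.9 CPM in KO cells, against 22 and 22.9 CPM in AGN192403 cells. Kif2c had 25.8 and 25 CPM in KO cells, against 11.8 and 13.9 CPM in AGN192403 cells. The 3 genes printed were picked from called members with a match before the start, largest differences first. That KO was the higher in each is therefore no independent result.

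**Figure D2:**
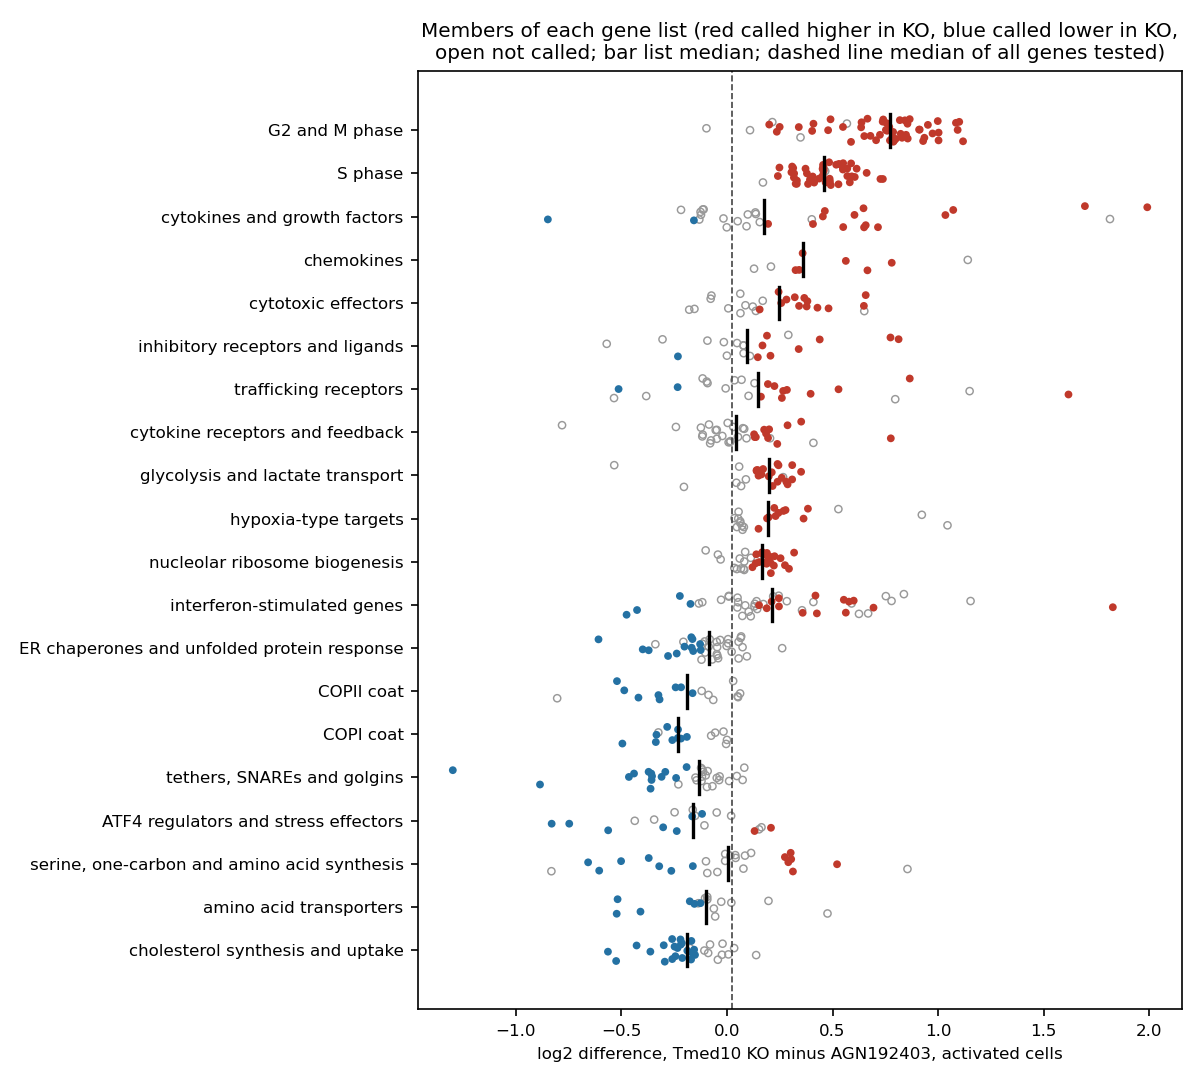
Log2 difference, KO minus AGN192403, of each tested member of 20 gene lists in activated cells; filled red points were called higher in KO, filled blue points lower, open points were not called, black bars are list medians and the dashed line is the median of all genes. The G2 and M phase and S phase lists lie to the right, with medians of 0.77 and 0.46, and the COPI and cholesterol lists lie to the left, with medians of -0.23 and -0.19.

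Of the cytokine genes that passed the test, most were higher in KO cells. Of 32 tested cytokines and growth factors, 14 were higher, 2 lower and 16 not called, beside 13% higher and 7.34% lower of all genes, with a median of 0.18 log2. The largest excess of KO cells in any called gene with at least 10 CPM was that of Il22, which acts on epithelial cells: it had 34.2 and 35.9 CPM in KO cells, against 9.91 and 11.5 CPM in AGN192403 cells, a difference of 1.70 ± 0.10 log2 (SE, adjusted p = 9.03e-11). Control cells had 43.5 and 42.9 CPM, above both. Tnfsf10, the death ligand TRAIL, had 37 and 35.3 CPM in KO cells, against 17.2 and 18.2 CPM in AGN192403 cells. Spp1, which encodes osteopontin, had 288 and 291 CPM in KO cells, against 169 and 183 CPM in AGN192403 cells, and Lif, an interleukin-6 family cytokine, had 377 and 371 CPM in KO cells, against 232 and 245 CPM in AGN192403 cells. The KO libraries were the higher in all 4 genes, but being called with groups that did not overlap was a condition of being named. Osteopontin was the only 1 of the 4 in which KO cells also exceeded control cells, which had 247 and 239.6 CPM. Il2, the T cell growth factor, had 20.6 and 21 CPM in KO cells, against 12.6 and 13.7 CPM in AGN192403 cells, a difference of 0.65 ± 0.11 log2 (SE, adjusted p = 1.09e-04). Ifng, the main macrophage-activating cytokine of these cells, had 3783 and 3939 CPM in KO cells, against 2802 and 3018 CPM in AGN192403 cells. Both therefore had non-overlapping groups with KO the higher, and both were called under every alternative. Tnf went the other way, with 114 and 116 CPM in KO cells, against 123 and 132 CPM in AGN192403 cells, and its difference of -0.16 ± 0.051 log2 (SE, adjusted p = 0.031) was not called without AGN192403 replicate 2, without KO replicate 1, with DESeq2 or with no expression filter.

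Chemokines and cytotoxic effectors followed the same direction. Of 9 tested chemokines, 6 were higher and 0 lower, with a median of 0.36 log2. Xcl1, which attracts cross-presenting dendritic cells, had 924 and 1035 CPM in KO cells, against 597 and 636 CPM in AGN192403 cells. Ccl9 had 84.2 and 83.7 CPM in KO cells, against 47.1 and 50.4 CPM in AGN192403 cells, and Ccl3, an inflammatory chemokine, had 1308 and 1430.2 CPM in KO cells, against 1033 and 1151 CPM in AGN192403 cells. The gap between groups was wider than the gap within them in all 3, but groups that did not overlap were a condition of being named. Of 25 tested cytotoxic effectors, 13 were higher and 0 lower, with a median of 0.24 log2. Gzmb, the granule protease that starts apoptosis in target cells and the gene with the most counts in these libraries, had 17574 and 18520.2 CPM in KO cells, against 12900.2 and 13914 CPM in AGN192403 cells, a difference of 0.43 ± 0.034 log2 (SE, adjusted p = 1.83e-09). Gzmd, Gzme and Gzmg differed by 0.48, 0.65 and 0.66 log2, but these granzymes are near-identical copies, so reads may have been split among them wrongly. Serpinb9, the inhibitor that protects cytotoxic cells from their own granzyme B, differed by 0.38 ± 0.035 log2 (SE, adjusted p = 1.97e-08).

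No difference was detected in the gene for PD-1, and that for CTLA-4 was higher in KO cells. Pdcd1, which encodes the inhibitory receptor PD-1, had 36.6 and 36.4 CPM in KO cells, against 34.9 and 37.9 CPM in AGN192403 cells. The groups overlapped, and the difference was within 0.081 log2 (1 SE) of 0, with an adjusted p of 0.999. Control cells had 42 and 45.7 CPM, above both. Ctla4, the receptor that takes B7 ligands from CD28, had 342 and 359.7 CPM in KO cells, against 194 and 205 CPM in AGN192403 cells, a difference of 0.81 ± 0.044 log2 (SE, adjusted p = 3.21e-12), and control cells had 471 and 485 CPM. Of 20 tested inhibitory receptors and ligands, 8 were higher and 1 was lower, but only 3 were higher without AGN192403 replicate 1 and 3 without either KO replicate. Cd200, a ligand that restrains myeloid cells, had 92.3 and 96.2 CPM in KO cells, against 55.9 and 54.1 CPM in AGN192403 cells, and was among those that held. Havcr2, which encodes TIM-3, was the member lower in KO cells, with 284 and 288 CPM in KO cells, against 332 and 339.5 CPM in AGN192403 cells. Entpd1, the ectonucleotidase CD39, had 59.7 and 60.2 CPM in KO cells, against 52.5 and 54 CPM in AGN192403 cells, and its adjusted p of 0.04 was lost in 9 of 13 alternatives. These are transcript levels and say nothing of the amount of receptor at the surface.

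Receptors that guide migration were more often higher than lower in KO cells. S1pr1, the receptor that lets T cells leave lymphoid tissue, had 15.7 and 19.5 CPM in KO cells, against 6.23 and 5.07 CPM in AGN192403 cells, a difference of 1.62 ± 0.13 log2 (SE, adjusted p = 2.53e-09). Control cells had 23.7 and 24 CPM. Cxcr4, the receptor of CXCL12, had 21 and 20.8 CPM in KO cells, against 10.6 and 12.2 CPM in AGN192403 cells, and Cxcr6, which marks tissue-homing effector cells, had 110.4 and 105 CPM in KO cells, against 85.1 and 92.1 CPM in AGN192403 cells. In all 3 both KO libraries were above both AGN192403 libraries, which for S1pr1 and Cxcr4 was a condition of being named. Of 24 tested trafficking receptors, 10 were higher and 2 lower, with 6 higher without KO replicate 1 and 1 to 4 lower with 1 library left out. Among costimulatory receptors, 6 were higher and 2 lower of 22, led by Tnfrsf8 (CD30) with 488 and 509 CPM in KO cells, against 332 and 349 CPM in AGN192403 cells. That count of higher members was 3 without AGN192403 replicate 1 and 3 without KO replicate 2. Tnfrsf9, which encodes 4-1BB, had 2582 and 2596 CPM in KO cells, against 2393 and 2573 CPM in AGN192403 cells, a difference of 0.060 ± 0.037 log2 (SE, adjusted p = 0.28), which was called only without AGN192403 replicate 2. Of 32 genes of receptor signalling, 6 were higher and 2 lower, which is 25% called beside 20.3% of all genes, with 3 higher without either KO replicate. Of 34 cytokine receptors and feedback genes, 11 were higher and 0 lower, with 5 higher without AGN192403 replicate 1 and 6 without KO replicate 1. Socs3, which blocks signalling through the shared interleukin-6 receptor chain, had 44.3 and 43.7 CPM in KO cells, against 25.3 and 26.1 CPM in AGN192403 cells, and Il2ra, the high-affinity interleukin-2 receptor chain, differed by 0.24 ± 0.032 log2 (SE, adjusted p = 4.93e-06).

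Most genes of glucose use and ribosome assembly were higher in KO than in AGN192403 cells with all libraries. Of 25 tested genes of glycolysis and lactate transport, 18 were higher and 0 lower, with a median of 0.20 log2 and with 11 higher without KO replicate 1. Ldha, which makes lactate, had 2656 and 2574 CPM in KO cells, against 2031 and 2189 CPM in AGN192403 cells. Slc2a3, a glucose transporter, differed by 0.35 ± 0.042 log2 (SE, adjusted p = 1.05e-06), and Pkm, the last kinase of glycolysis, by 0.29 log2. Of 22 hypoxia-type targets, 10 were higher and 0 lower, but 5 without AGN192403 replicate 1 and 5 or 6 without KO replicate 1 or 2. Of 33 nucleolar genes of ribosome assembly, 20 were higher and 0 lower, with 11 higher without AGN192403 replicate 1 and 8 or 10 without KO replicate 1 or 2. Ncl, the abundant nucleolar protein nucleolin, had 2895 and 2986 CPM in KO cells, against 2289 and 2428 CPM in AGN192403 cells and was called in every alternative. mt-Nd1, a subunit of complex I encoded in mitochondria, had 2593 and 2426 CPM in KO cells, against 1752 and 2018 CPM in AGN192403 cells.

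Members of the vesicle coats and of the Golgi machinery that passed the test were lower in KO than in AGN192403 cells. Of 16 tested genes of COPII, the coat of vesicles leaving the ER, 8 were lower, 0 higher and 8 not called in KO cells, with a median of -0.19 log2. Sec23a encodes the inner coat subunit that stimulates GTP hydrolysis by SAR1. It had 110.1 and 106 CPM in KO cells, against 157 and 155 CPM in AGN192403 cells, a difference of -0.52 ± 0.045 log2 (SE, adjusted p = 6.68e-09). Control cells had 66.8 and 68.2 CPM, below both. Sec24d, a cargo-binding subunit, had 119 and 129 CPM in KO cells, 167 and 164 CPM in AGN192403 cells and 65.9 and 74.2 CPM in control cells. Sec16a, which marks ER exit sites, had 202 and 211 CPM in KO cells, against 297 and 282 CPM in AGN192403 cells, but control cells had 203 and 195 CPM, at the KO level. Of 15 genes of COPI, the coat of vesicles that return to the ER, 9 were lower and 0 higher, with a median of -0.23 log2. Gbf1, the exchange factor that loads ARF1 and so recruits COPI, had 166 and 170.0 CPM in KO cells, 241 and 233 CPM in AGN192403 cells and 138 and 140.3 CPM in control cells. Copb2, a coat subunit that binds the dilysine tails found on TMED proteins, had 382 and 408 CPM in KO cells, 492 and 502 CPM in AGN192403 cells and 276 and 283 CPM in control cells. In Sec24d, Gbf1 and Copb2 the 3 groups did not overlap and KO lay in the middle. Both coat counts stayed within a factor of 1.5 in every alternative tried.

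Promoters of coat genes are shown because XBP1 and ATF6, factors of the unfolded protein response, bind the core TGACGTGG, which shares TGACGT with the cAMP response element. These letters, searched on both strands in the same 300-base windows, stood in 4 of 14 COPI promoters (28.6%), 2 of 16 COPII promoters (12.5%) and 0 of 31 promoters of ER chaperones, against 1.04% of all tested genes with a window. The 3 stretches are chr19:46152496-46152565, chr3:123267434-123267503 and chr9:98563669-98563738, all on the plus strand, with the match in capitals 12, 26 and 7 bases before the start. In Gbf1 and Copb2 the match is on the opposite strand and reads CCACGTCA.
Gbf1: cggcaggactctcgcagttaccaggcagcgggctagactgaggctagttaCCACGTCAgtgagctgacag
Sec24d: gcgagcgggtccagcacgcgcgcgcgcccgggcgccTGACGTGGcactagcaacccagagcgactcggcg
Copb2: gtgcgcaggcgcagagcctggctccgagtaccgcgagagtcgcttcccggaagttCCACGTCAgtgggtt
The 3 genes were picked from called coat genes with a match before the start, largest differences first. That all were lower in KO cells, by -0.50, -0.42 and -0.33 log2, is therefore no independent result.

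Golgi tethers, SNAREs and golgins were lower in KO cells where they passed the test. Of 32 tested members, a list that also holds Tmed10, 13 were lower and 0 higher, with a median of -0.13 log2 and 21 lower under library totals. Golga2, the cis-Golgi matrix protein GM130, had 140.0 and 151 CPM in KO cells, against 196 and 197 CPM in AGN192403 cells. Golgb1, which encodes the tether giantin, had 124 and 136 CPM in KO cells, against 266 and 213 CPM in AGN192403 cells, with replicate 1 of AGN192403 the highest, and differed by -0.89 log2 with all libraries and -0.74 without that replicate. Of 38 ER chaperone and unfolded protein response genes, 12 were lower and 0 higher, with a median of -0.084 log2 and 7 lower with DESeq2. Without AGN192403 replicate 2, fewer members were called lower and some were called higher. Creb3, a membrane-bound transcription factor released at the Golgi, had 34.4 and 38.2 CPM in KO cells, 53 and 56.2 CPM in AGN192403 cells and 24.3 and 25.8 CPM in control cells. Sel1l and Syvn1, which form the channel for ER-associated degradation, differed by -0.37 and -0.24 log2. Of 17 ER cargo receptors, 7 were lower and 0 higher, with a median of 0.017 log2. Without AGN192403 replicate 2 the balance turned, with 3 higher and 2 lower, and without KO replicate 1 3 were lower. Kdelr2 and Kdelr3, which return escaped ER proteins, were called lower in every alternative, with differences of -0.23 and -0.53 log2.

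Most of the TMED family apart from Tmed10 was not called. Of 9 tested members, 2 were higher and 1, Tmed10, was lower, with 2 lower without AGN192403 replicate 1 and 3 without KO replicate 1. Tmed9, the member whose protein AGN192403 is known to lower in kidney cells, had 277 and 254 CPM in KO cells, against 272 and 289 CPM in AGN192403 cells, with overlapping groups and an adjusted p of 0.26. Tmed2, a partner of Tmed10, had 52.9 and 48 CPM in KO cells, against 56.9 and 56.9 CPM in AGN192403 cells and an adjusted p of 0.067. The members higher in KO cells were Tmed5, with 258 and 253 CPM in KO cells, against 227 and 225 CPM in AGN192403 cells, and Tmed7, with 210.5 and 221 CPM in KO cells, against 189 and 193 CPM in AGN192403 cells. Tmed5 lost its call without KO replicate 1 and Tmed7 in 5 alternatives, while Tmed2 was called lower in 4 alternatives and Tmed9 in 3, among them library totals and the fit without KO replicate 1.

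Several stress effectors of the amino acid response were lower in KO cells. Of 19 tested ATF4 regulators and effectors, 7 were lower, 2 higher and 10 not called, the higher count being 0 to 1 with any 1 library left out, with a median of -0.16 log2. ATF4 is the factor that is translated when amino acids run short or the ER is under stress. Atf5, itself an ATF4 target and a regulator of mitochondrial stress, had 34 and 33.1 CPM in KO cells, 53.1 and 59.4 CPM in AGN192403 cells and 14.3 and 15.6 CPM in control cells. Ddit3, the stress factor CHOP, had 17.6 and 16.7 CPM in KO cells, 24.8 and 25.9 CPM in AGN192403 cells and 10.6 and 10.4 CPM in control cells. Avil, an actin-binding protein of the gelsolin family, had 20.5 and 25.9 CPM in KO cells, 37.4 and 42.7 CPM in AGN192403 cells and 3.75 and 4.36 CPM in control cells. In each of these 3 genes AGN192403 was highest, KO intermediate and control lowest, with no overlap. Trib3, a pseudokinase that feeds back on ATF4, differed by -0.30 ± 0.059 log2 (SE, adjusted p = 5.02e-04), and by -0.46 log2 without KO replicate 1.

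Of 26 genes of serine, one-carbon and amino acid synthesis, 6 were higher and 7 lower, with a median of 0.0038 log2. Pck2, the mitochondrial phosphoenolpyruvate carboxykinase, had 119 and 127 CPM in KO cells, 172 and 175 CPM in AGN192403 cells and 50.5 and 51.7 CPM in control cells. Aldh1l2, a mitochondrial folate enzyme, had 30.5 and 34.7 CPM in KO cells, 50.02 and 51.5 CPM in AGN192403 cells and 3.67 and 3.69 CPM in control cells, and Pycr1, which completes proline synthesis, had 46.3 and 48 CPM in KO cells, 68.7 and 73.8 CPM in AGN192403 cells and 21.8 and 20.6 CPM in control cells. Shmt1, the cytosolic serine hydroxymethyltransferase, had the opposite order, with 93.6 and 91.8 CPM in KO cells, 62.2 and 66.7 CPM in AGN192403 cells and 112 and 111 CPM in control cells. Of 16 amino acid transporters, 6 were lower and 0 higher. Slc7a5, the light chain of the large neutral amino acid transporter, had 878 and 898 CPM in KO cells, against 984 and 1021 CPM in AGN192403 cells. Of 20 aminoacyl-tRNA synthetases, 3 were higher and 5 lower, and this balance turned without AGN192403 replicate 2, with 5 higher and 1 lower. The lower count was 8 without AGN192403 replicate 1 and 3 without KO replicate 1.

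The ATF4 element is shown for Avil and Pycr1. The letters TGATGCAA, searched on both strands, stood in 6 of 17 promoters of the ATF4 list (35.3%) and 2 of 22 of the synthesis list (9.09%), against 0.8% of all tested genes with a window. The stretches are chr10:127000647-127000716 (plus strand) and chr11:120643812-120643881 (minus strand), with the match in capitals 17 and 103 bases before the start.
Avil: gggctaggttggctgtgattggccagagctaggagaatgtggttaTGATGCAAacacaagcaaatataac
Pycr1: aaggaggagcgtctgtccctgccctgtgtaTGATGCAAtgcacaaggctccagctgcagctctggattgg
Some members of the list were chosen in the first place as ATF4 targets, so the share in it is no independent result.

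Most sterol genes were lower in KO cells. Of 31 tested genes of cholesterol and fatty acid synthesis and uptake, 21 were lower and 0 higher, with a median of -0.19 log2. Fasn, the fatty acid synthase, had 1021 and 1033 CPM in KO cells, 1512 and 1444 CPM in AGN192403 cells and 1255 and 1241 CPM in control cells, a difference KO minus AGN192403 of -0.52 ± 0.038 log2 (SE, adjusted p = 3.38e-10). Dhcr7, which makes cholesterol from its last precursor, had 59.9 and 55.5 CPM in KO cells, 76.1 and 80.05 CPM in AGN192403 cells and 63.1 and 60.5 CPM in control cells. In both genes the KO libraries lay below the control libraries, and the AGN192403 libraries lay above both.

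Interferon-stimulated genes leaned towards KO cells. Of 47 tested, 14 were higher and 4 lower, with 9 higher without AGN192403 replicate 1 and 8 without KO replicate 1. Isg15, a ubiquitin-like protein, had 13.2 and 14 CPM in KO cells, against 8.59 and 9.19 CPM in AGN192403 cells, and Oas3, a sensor of double-stranded RNA, differed by 0.43 log2. Mx1, an antiviral GTPase, went the other way, with 32 and 26.2 CPM in KO cells, against 40.02 and 42.3 CPM in AGN192403 cells. Genes of lysosome and autophagy were split evenly, 6 higher and 6 lower of 45, which is 26.7% called beside 20.3% of all genes. Sqstm1, the autophagy receptor p62, was among the lower ones, with 267 and 277 CPM in KO cells, 399.7 and 417 CPM in AGN192403 cells and 160.0 and 171 CPM in control cells. Of 31 NRF2 targets and redox genes, 5 were higher and 4 lower (29% called). Of 26 genes of the BCL2 family and cell death, 5 were higher and 3 lower (30.8% called). These counts rest on single libraries: with 1 library left out, whichever it was, the higher members numbered 0 to 11 in the lysosome list, 0 to 7 in the NRF2 list and 2 to 5 in the BCL2 list, lowest without AGN192403 replicate 1 in each.

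The largest falls in KO cells were mostly long transcripts, and they varied between the AGN192403 libraries. Of the 15 called genes with the largest falls, groups apart and at least 10 CPM in AGN192403 cells, 9 had a summed exon length over 10 kb, against 1 of the 15 with the largest rises. Macf1, a giant cytoskeletal linker, had 286 and 327 CPM in KO cells, against 702 and 438 CPM in AGN192403 cells. Kmt2d, a histone H3 lysine 4 methyltransferase, had 173 and 199 CPM in KO cells, against 477 and 284 CPM in AGN192403 cells, and Neb, which encodes the muscle protein nebulin, had 71.9 and 87 CPM in KO cells, against 229 and 121 CPM in AGN192403 cells. In all 3 replicate 1 of AGN192403 was far above replicate 2, and both were above the KO libraries. Without replicate 1 the log2 difference was -0.54 in place of -0.89 for Macf1, -0.64 in place of -1.03 for Kmt2d and -0.65 in place of -1.14 for Neb, and all 3 were still called. Over the 239 tested genes with more than 16 kb of exon, 40.2% were called lower and 5.44% higher in KO cells, with a median of -0.18 log2. That median was -0.12 without AGN192403 replicate 1, -0.25 without replicate 2, and -0.036 after offsets for length and GC content. Malat1 was also highest in replicate 1 of AGN192403 and lowest in KO cells, as given above, and the part of nuclear RNA content in these differences was not tested. Kcnq1ot1, a nuclear RNA antisense to Kcnq1 (the strand setting of the counting is not given in the sources used here), had 3.40 and 3.66 CPM in KO cells, against 42.2 and 8.23 CPM in AGN192403 cells, and its difference of -2.76 log2 became -1.25 without AGN192403 replicate 1 and was then not called (adjusted p = 0.079), nor was it without KO replicate 1 (adjusted p = 0.053). Angptl6, a secreted angiopoietin-like protein, was called lower in every alternative, with 11.1 and 11.4 CPM in KO cells, 22 and 22.6 CPM in AGN192403 cells and 2.67 and 4.11 CPM in control cells.

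**Figure D3:**
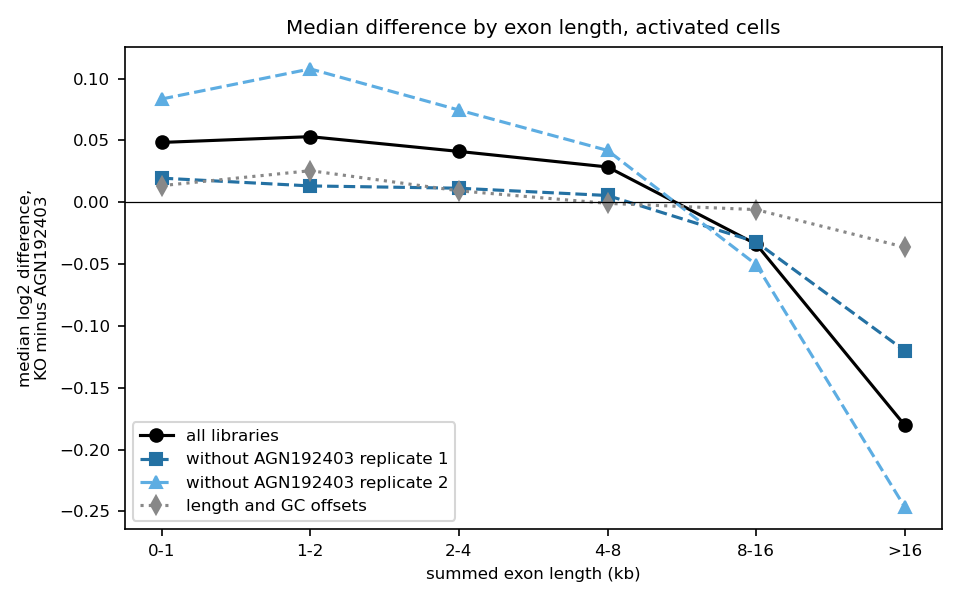
Median log2 difference, KO minus AGN192403, in activated cells (y axis) by summed exon length in kb (x axis), for all libraries, without each AGN192403 replicate and with offsets for length and GC content. The median of genes over 16 kb is -0.18 with all libraries and -0.036 with the offsets.

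The same contrast in resting cells shares no library with the activated one. There 2186 genes (16.6%) were called, 1162 (8.83%) higher and 1024 (7.78%) lower in KO cells. Both states called 922 genes, which is 34.5% of the activated and 42.2% of the resting calls, with the same direction for 845 of them and opposite directions for 77. The difference between the 2 states, tested directly, was called for 1221 genes (9.27%), 809 (6.14%) with a higher and 412 (3.13%) with a lower value in activated cells. Of the 1751 genes called in activated but not in resting cells, 508 passed that test, so most of the genes called in 1 state are not shown to differ between states.

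Cell cycle genes differed in both states, and a part of them differed more after activation. In resting cells 54 of 56 G2 and M phase genes were higher in KO cells, with a median of 0.46 log2, and 29 had a larger difference in activated cells. S phase had 32 higher of 47 at rest, and 19 members had a higher value after activation by the test. Counts of list members for the difference between states were not rerun under the alternatives. COPI had 12 lower of 15 at rest with a median of -0.56 log2, and 10 members passed the test of the difference, with a larger deficit of KO cells at rest. COPII had 11 lower of 16 at rest, and 5 members passed that test. Copb2 differed by -0.33 log2 in activated and -0.81 log2 in resting cells. Aminoacyl-tRNA synthetases were lower at rest, 12 of 20 with a median of -0.39 log2, and 15 passed the test of the difference. Cytokines had 3 higher and 3 lower at rest, and 5 members had a higher value after activation by the test. Lif differed by 0.65 log2 in activated and -0.0086 log2 in resting cells, a gap of 0.66 ± 0.058 log2 (SE, adjusted p = 1.58e-07). Gzmb differed by 0.43 log2 in activated and 0.012 log2 in resting cells, a gap of 0.42 ± 0.049 log2 (SE, adjusted p = 7.34e-06). Cholesterol genes were lower in both states, with 24 of 31 lower at rest.

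**Figure D4:**
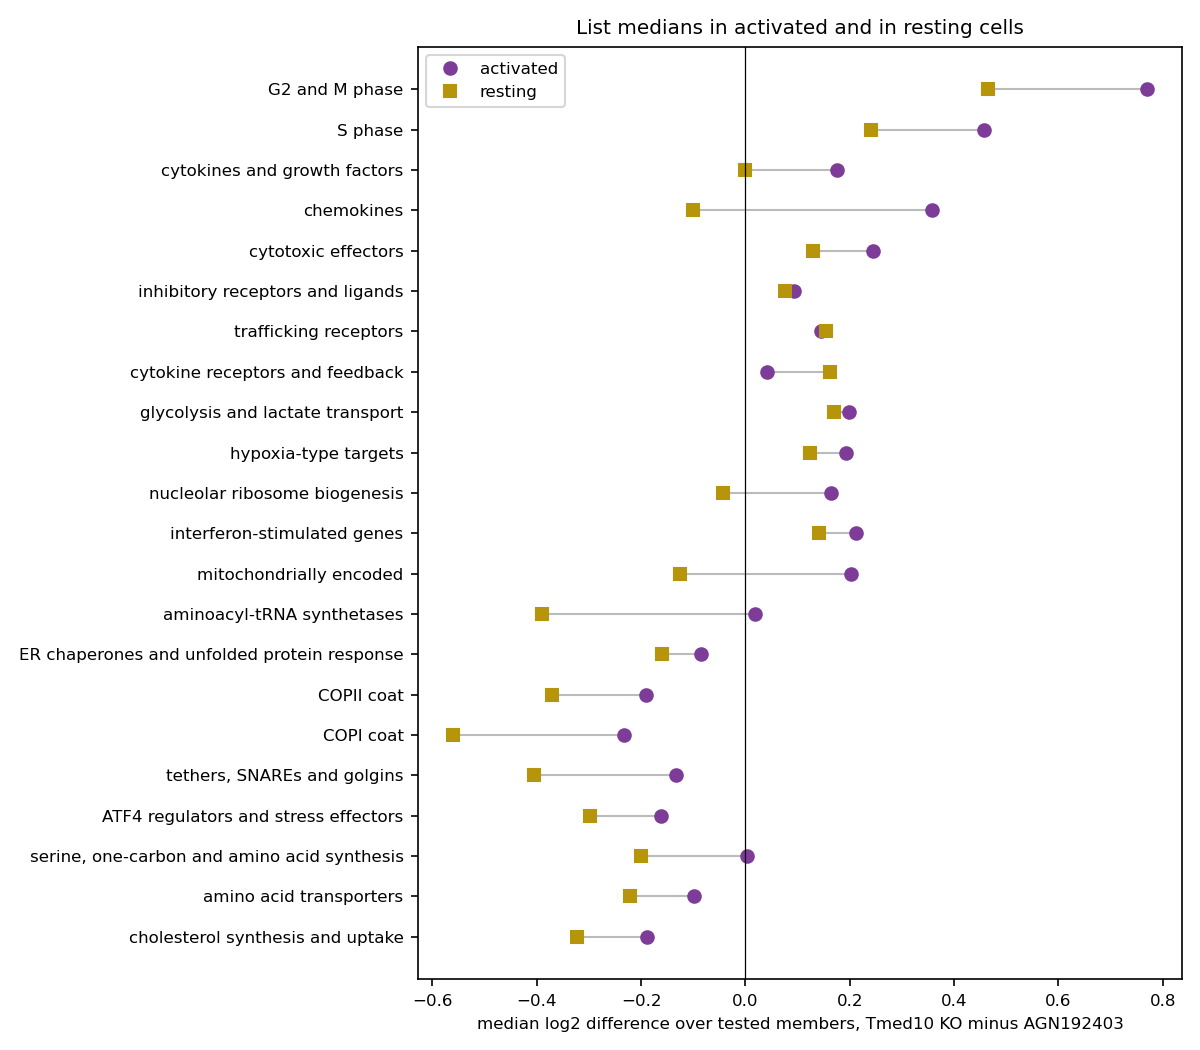
Median log2 difference, KO minus AGN192403, over the tested members of each gene list, in activated cells (circles) and in resting cells (squares). COPI has a median of -0.23 in activated and -0.56 in resting cells, and the nucleolar list 0.16 in activated and -0.044 in resting cells.

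Some genes had opposite calls in the 2 states. Il24, an interleukin-10 family cytokine, differed by 0.55 log2 in activated and -0.26 log2 in resting cells. Tnfrsf8 differed by 0.55 log2 in activated and -0.19 log2 in resting cells. Jund, an AP-1 subunit, was lower in KO cells after activation, at -0.27 log2, and higher at rest, at 0.41 log2. Hif1a, the oxygen-regulated subunit of the hypoxia factor, had the reverse pattern, with 0.18 log2 in activated and -0.19 log2 in resting cells. Il24, Jund and Hif1a were chosen after their values were seen, from the 77 genes with opposite calls.

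Values against control cells place both perturbations on 1 scale. Both comparisons below use the same 2 control libraries, so their values are set side by side and likeness between them is not read as a result. KO cells differed from control cells at 2583 genes (19.6%), with 10.8% of all tested genes higher and 8.78% lower. AGN192403 cells differed at 4570 (34.7%), with 16.4% higher and 18.3% lower. G2 and M phase genes were lower than control in both, 52 of 56 in KO cells with a median of -0.43 log2 and 54 of 56 in AGN192403 cells with a median of -1.21 log2. COPI genes were higher than control in both, 13 of 15 in KO cells with a median of 0.28 log2 and 13 of 15 in AGN192403 cells with a median of 0.64 log2. Cytotoxic effectors had 4 higher and 9 lower of 25 in KO cells, and 3 higher and 15 lower in AGN192403 cells. Cholesterol genes had 0 higher and 10 lower of 31 in KO cells, and 16 higher and 7 lower in AGN192403 cells. Glycolysis genes had 5 lower of 25 in KO cells and 18 lower in AGN192403 cells. Nucleolar genes had 1 higher and 4 lower of 33 in KO cells, and 0 higher and 25 lower in AGN192403 cells. Cytokines had 11 higher and 9 lower of 32 in KO cells, and 8 higher and 13 lower in AGN192403 cells. Gzmb made up 1.93% and 1.99% of counts in control, 1.72% and 1.81% in KO and 1.32% and 1.40% in AGN192403 libraries.

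**Figure D5:**
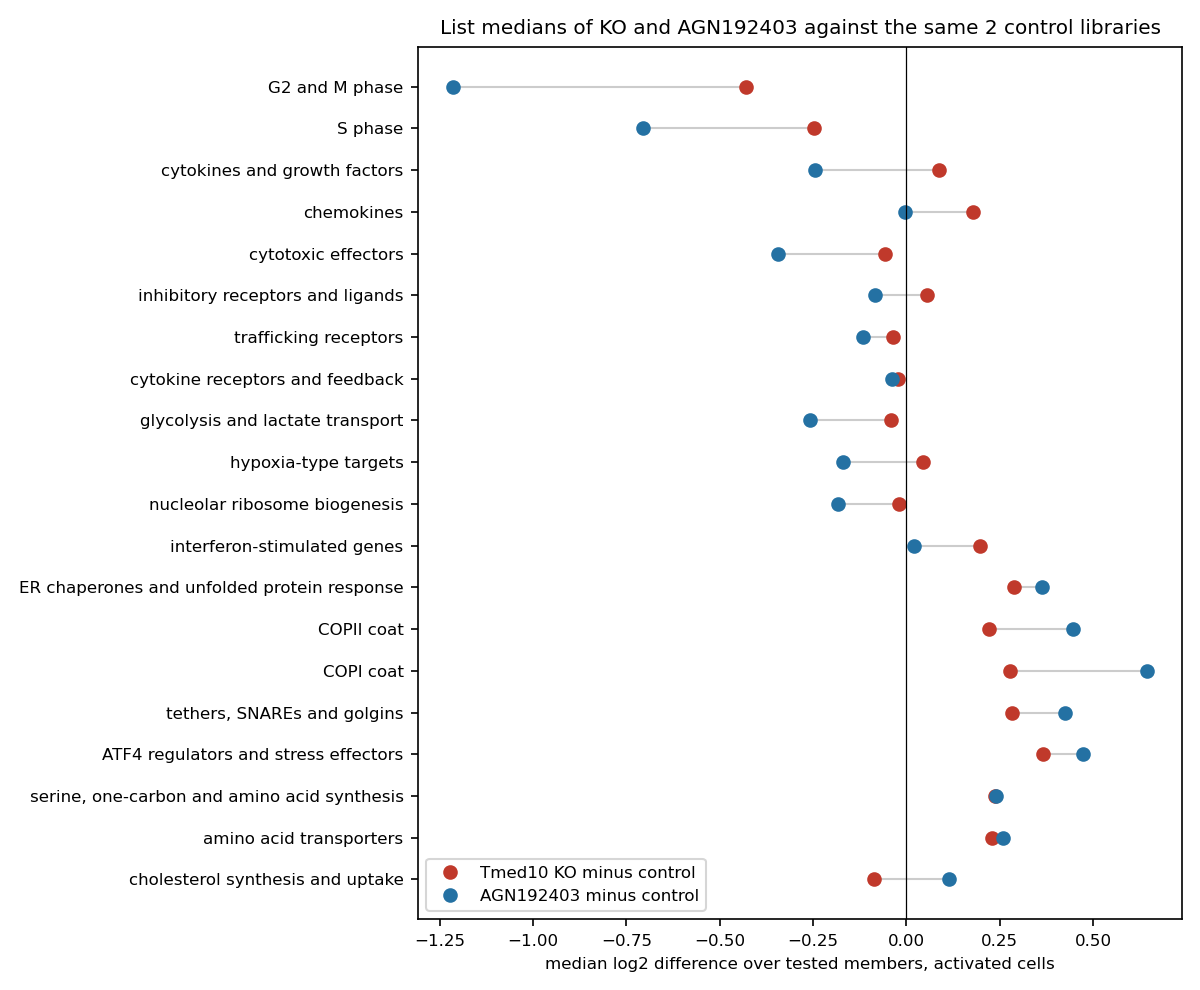
Median log2 difference from control over the tested members of each gene list in activated cells, for KO cells (red) and AGN192403 cells (blue), which share the 2 control libraries. The G2 and M phase medians are -0.43 for KO and -1.21 for AGN192403, and the COPI medians are 0.28 for KO and 0.64 for AGN192403.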

How the data were processed

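The series holds 12 RNA libraries in 6 groups of 2, and groups were taken per the labels. The authors deposited whole read counts per gene. Per the submitters' processing notes reads were aligned with STAR 2.6.0c to GRCm38 (mm10) and counted with HTSeq, although the study's own methods give a different version of STAR. Libraries were made from polyadenylated RNA with a stranded kit, per the study. A symbol was found for 46091 of the 46603 identifiers in the table, and the 512 without one held 0.0709% of counts. Library totals ran from 9089350 to 16481840 counts. P-values rest on the spread between 2 libraries a group, estimated over the 6 groups together. Activated AGN192403 replicates differed most, with a chi-square per degree of freedom of 3.86, against 1.13 to 2.24 in the other groups. The shared estimate may therefore understate the spread of that group.

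Counts were fitted with edgeR 4.0.16 in R 4.3.3: filterByExpr over the 6 groups kept 13167 genes, sizes were scaled by TMM (factors 0.976 to 1.02), and a quasi-likelihood model with a mean for each group was fitted to the 12 libraries (6 residual degrees of freedom, common coefficient of variation 0.0306). A call needed a p under 0.05 after Benjamini-Hochberg adjustment across the tested genes, and steps were tested on simulated data. The study used DESeq2. Alternatives were DESeq2 1.42.0, median-ratio size factors, library totals, no filter, a filter of 5 CPM in 2 libraries, only the libraries of the contrast, the replicate number as a block, and leaving out each replicate. Offsets for length and GC content, and leaving out 3 libraries high in Malat1, were added after seeing the data.

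Genes named were Tmed10, Tmed2 and Tmed9, Il2, Ifng and Tnf, Ctla4, Pdcd1, Entpd1, Tnfrsf9 and Cxcr6, the 15 largest called differences in each direction (groups not overlapping, higher mean of 10 CPM or more), up to 6 called members of each of 41 gene lists, and the 6 largest differences between states in each direction. List members had to meet the same conditions (groups not overlapping, higher mean of 10 CPM or more). Of all genes so named a part is printed. The comparison, the lists and the rule were chosen with earlier results of these data known. Promoter sequences are from RefSeq (GRCm38.p6), matched by symbol. Guide sequences were not used here.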

Additional observations from a re-analysis of the deposited data

Results flagged for a closer look

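The difference between KO and AGN192403 cells itself differed between activated and resting cells, by a test of that difference, at 1221 genes. A higher KO minus AGN192403 value in activated than in resting cells was called for 6.14% of all genes tested. Such members numbered 29 of 56 in the G2 and M phase list, 19 of 47 in the S phase list and 17 of 33 in the nucleolar list. They numbered 15 of 20 among aminoacyl-tRNA synthetases and 13 of 26 among genes of serine, one-carbon and amino acid synthesis. The COPI coat had 10 of 15, the tethers, SNAREs and golgins 10 of 32 and the ER chaperones 10 of 38. Only lists with at least 10 such members were flagged, which favours long lists. COPII, with 5 of 16, and genes encoded in mitochondria, with 6 of 7, fell below that cut. In the COPI coat and the tethers this is a smaller deficit of KO cells after activation, and in the cell cycle lists a larger excess.

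Genes called in opposite directions in the 2 states were singled out too. The gap, activated minus resting, was 0.81 ± 0.085 log2 for Il24 (SE, adjusted p = 1.55e-06), 0.74 log2 for Tnfrsf8, 0.38 log2 for Tmed7, 0.37 log2 for Hif1a and -0.68 log2 for Jund. The count of 1221 fell to 530 with DESeq2 and 800 with offsets for length and GC content.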

How the results depend on the processing

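Library size scaling by median ratios and a filter of 5 CPM left the activated counts within 1.5 times, at 2671 and 2743 genes. DESeq2 called fewer genes: 1525 in activated cells (991 higher, 534 lower), 1297 in resting cells (442 lower), 530 for the difference between states (278 higher, 252 lower), 1430 for KO against control and 3031 for AGN192403 against control. With only the libraries of the contrast, 1065 genes were higher in activated cells and 461 in the difference between states. Library totals gave 1500 lower genes. Without the expression filter the difference between states had 1293 higher and 262 lower genes, and with offsets for length and GC content it had 800 genes, 454 of them higher. With each replicate left out in turn, the activated contrast had 1583 to 2804 called genes (910 to 1781 higher), the resting contrast 1215 to 1626 (426 to 549 lower), the difference between states 463 to 1727 (197 to 1157 higher, 266 to 570 lower), and KO against control 1538 to 2064. Where this left 1 library in a group, that library was assumed to vary like the others. AGN192403 replicates 1 and 2 bore differently on the count, with 1774 and 2804 called genes without them. Without the 3 libraries high in Malat1, 2151 genes were called. Of the 2673 genes, 1523 were also called by DESeq2, 1956 with only the libraries of the contrast and 1590 without AGN192403 replicate 1. Pdcd1, which was not called, had a positive sign with no expression filter (0.037) and with the block (0.0027), and ran from -0.069 to 0.067 log2 with each replicate left out. Tnfrsf9 ran from -0.0080 to 0.12 log2 and was called only at the upper end, without AGN192403 replicate 2 (adjusted p = 0.030). The causes were not tested.

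Same-numbered activated KO and AGN192403 libraries did not deviate together (correlation 0.013). Activated AGN192403 libraries did in part with activated and with resting control libraries (0.21 and 0.24). Resting AGN192403 libraries did not (0.0051 and 0.016). As not every pair of groups did, the numbers were not taken to pair libraries. With the replicate block 3124 genes were called between KO and AGN192403 in activated cells, 2993 for KO and 4848 for AGN192403 against control. Depth limits the transcripts of a few CPM most, and with 2 libraries a group a gene that was not called may still differ.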

Other observations

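Transcription factors of activation and memory differed in both directions. Of 38 tested activation factors, 7 were higher and 6 lower in KO than in AGN192403 cells. Egr2, which is induced by receptor signalling and limits it, had 38.4 and 39.6 CPM in KO cells, against 53.5 and 53.8 CPM in AGN192403 cells, a difference of -0.46 ± 0.075 log2 (SE, adjusted p = 6.29e-05). Nr4a2, an orphan nuclear receptor induced by the same signals, had 83.4 and 87.2 CPM in KO cells, against 65.2 and 62.5 CPM in AGN192403 cells, and Fosl2, an AP-1 subunit, had 237 and 228 CPM in KO cells, against 187 and 178 CPM in AGN192403 cells. Of 31 effector and memory genes, 9 were higher and 4 lower. Without KO replicate 1 the higher activation factors numbered 4, and without KO replicate 2 the higher effector and memory genes numbered 5. Foxo1, which keeps up memory and homing genes, had 115 and 124 CPM in KO cells, against 95 and 97.4 CPM in AGN192403 cells, and Zbtb7b, the factor that sets CD4 lineage identity, had 44 and 49.5 CPM in KO cells, against 67.6 and 62.6 CPM in AGN192403 cells. Both replicates of KO cells lay on the same side of both AGN192403 replicates in these 5 genes. That was a condition for naming list members, and it held for 55.8% of all genes tested.

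Other lists moved less or held few genes. Called shares were 25% for MHC antigen presentation, 20.6% for N-glycan assembly and 8.33% for fatty acid oxidation. They were 12.5% for killer lectin-like receptors and 16.7% for cholesterol efflux, beside 20.3% of all genes. Of 24 tested genes of MHC antigen presentation, 2 were higher and 4 lower in KO cells, and Nlrc5, the transactivator of MHC class I, had 242 and 235 CPM in KO cells, against 321 and 278 CPM in AGN192403 cells. N-glycan assembly had 2 higher and 5 lower of 34, fatty acid oxidation 2 higher and 0 lower of 24, killer lectin-like receptors 1 higher (0 without AGN192403 replicate 1) and 0 lower of 8, and cholesterol efflux genes 0 higher and 2 lower of 12. Of 7 tested genes encoded in mitochondria, 4 were higher and 0 lower in activated cells, and 0 higher and 3 lower in resting cells. Of 9 nuclear long RNAs, 0 were higher and 5 lower, and 3 lower without AGN192403 replicate 1. The higher members of the MHC and N-glycan lists were not called without AGN192403 replicate 1. Of 5 candidate clients of TMED10, 2, Ctla4 and Cxcr4, were higher and 0 lower. Of 4 genes tied to imidazoline or amine binding, 2, Pkm and the amine oxidase gene Maoa, were higher and 0 lower. DESeq2 called 1 member of that list higher. Maoa had values in 11 alternatives, against 13 for Pkm. Maoa lost its call in 4 alternatives: without AGN192403 replicate 1, without either KO replicate and without the 3 libraries high in Malat1.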
